A study of Bos taurus with 10 samples.

Results

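The SLC39A genes encode the ZIP transporters, which carry zinc into the cytosol from outside the cell or out of organelles. The 10 genes described are SLC39A1, SLC39A3, SLC39A4, SLC39A6, SLC39A7, SLC39A8, SLC39A9, SLC39A10, SLC39A11 and SLC39A14, out of 18010 genes that a probeset of the array names alone. They were chosen by family name, and the family was taken up because SLC39A1 was higher in the MIX samples, so the difference in SLC39A1 is given as a description with no test. A probeset is the group of array probes summarised as 1 value, and 11 probesets name a member alone. For SLC39A8, which has both a brighter and a dimmer probeset, the one with the highest mean over the 10 arrays stands for the gene.

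The samples were corpora lutea of cattle (Bos taurus), the progesterone-secreting glands that form from the ovulated follicle, all taken at cycle day 7, in the early luteal phase. The series compares cows supplemented with different forms of selenium, which the labels name only as MIX (5 samples) and ISe (5 samples), with no breed, age, allele or further treatment given in the labels used here. Total RNA of each piece of frozen gland was hybridised to 1 single-colour whole-transcript array, and values are log2 signals, with array medians from 5.99 to 6.04. Whether every sample had its own donor animal is not stated in the labels, so the p-values reflect variation among these 10 arrays, whose number limits the precision.

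MIX 8 stood apart from the other arrays on the first principal component over all probesets tested, at 32.8 against -9.5 to 1.3, and MIX 1 on the second, at 26.6 against -11.8 to 6.1. The 9 measured markers of steroidogenic luteal cells averaged 11.39 to 11.64 log2 per array, far above the array medians, with CYP11A1, the enzyme that cleaves the cholesterol side chain, at 12.99 ± 0.03 in MIX against 13.01 ± 0.04 in ISe (SD, n = 5 each). Over the 19145 probesets tested with limma, 0 passed an adjusted p of 0.05 (0% called), and 918 had an unadjusted p under 0.05 (4.79%).

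Zinc is a catalytic or structural part of many enzymes and transcription factors, and cells hold almost none of it free. ZIP transporters raise cytosolic zinc, SLC30A (ZnT) transporters remove it to the outside or into vesicles, metallothioneins bind it, and the transcription factor MTF1 switches on metallothionein and SLC30A1 genes when zinc rises. In the corpus luteum zinc serves matrix metalloproteinases, which remodel the gland, and cytosolic superoxide dismutase. SLC39A8 and SLC39A14 also carry manganese, iron and cadmium.

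SLC39A1, a widely expressed transporter that takes up zinc at the plasma membrane, was the member for which the family was picked. Its log2 signal was 7.66 in ISe 2, 7.63 in ISe 3, 7.67 in ISe 5, 7.61 in ISe 6 and 7.88 in ISe 7. It was 7.92 in MIX 1, 8.13 in MIX 8, 7.94 in MIX 9, 8.11 in MIX 10 and 8.10 in MIX 11. The groups did not overlap, with a gap of 0.04 log2 between ISe 7, the highest ISe sample, and MIX 1, the lowest MIX sample. The means were 8.04 ± 0.10 in MIX against 7.69 ± 0.11 in ISe (SD, n = 5 each), a log2 difference of 0.35 or 1.28-fold. Of all probesets tested, 0.366% had every MIX sample above every ISe sample. Because the rule used this contrast, nothing is read from that share. Without MIX 1 and MIX 8, the arrays that stood apart, the log2 difference of SLC39A1 was 0.36.

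**Figure D1:**
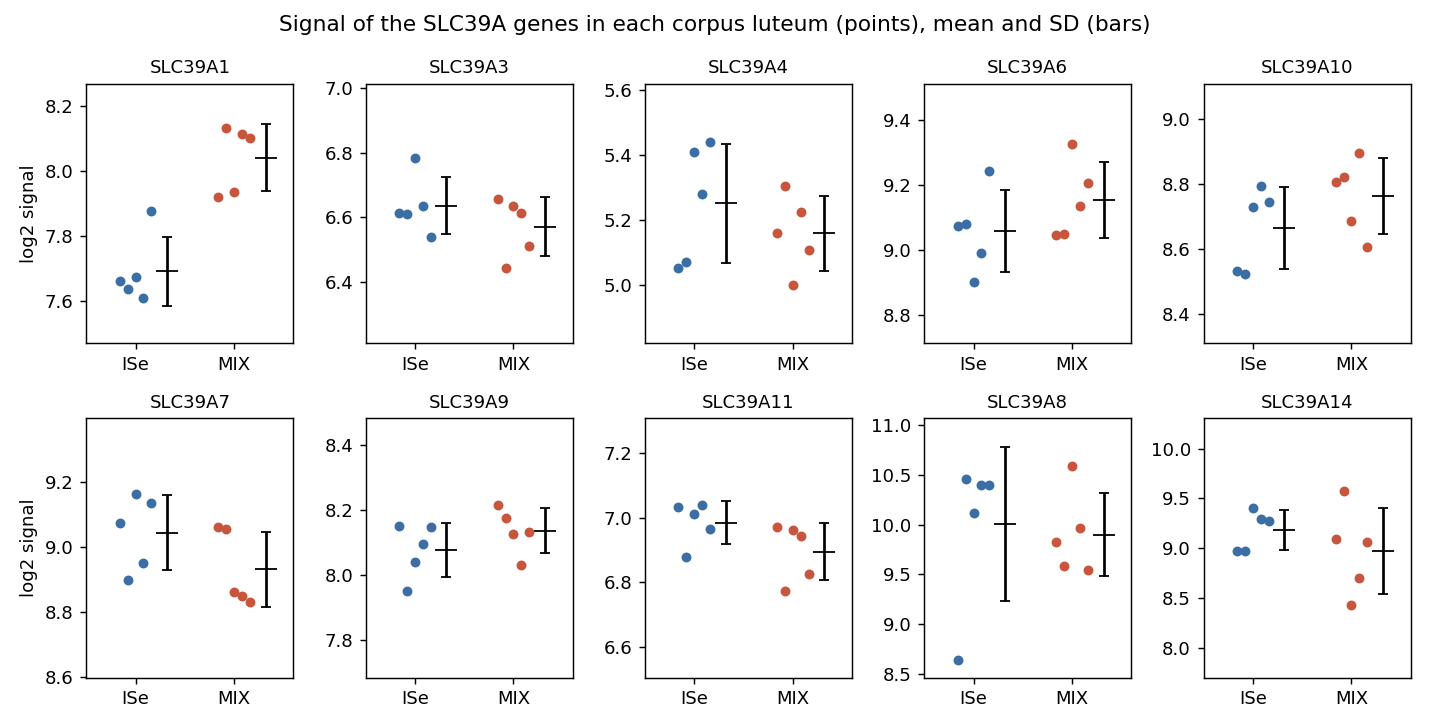
Log2 signal of the 10 SLC39A genes in each of 5 ISe and 5 MIX corpora lutea (points, 1 per array), with the group mean and SD (black). The vertical scale spans the same width in 8 panels and is wider for SLC39A8 and SLC39A14; in SLC39A1 the groups do not overlap, and in the other 9 genes they do.

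None of the other 9 members differed past the threshold between MIX and ISe. Their adjusted p-values in the limma fit over all 19145 probesets ran from 0.941 to 0.986, the smallest unadjusted p was 0.167, and 0 of the 9 were at an unadjusted p under 0.05, against 4.79% of all probesets. Of these 9 genes, 3 had a higher and 6 a lower mean in MIX, where 50.4% of all probesets had a higher mean in MIX, and the groups overlapped in all 9, where 0.642% of all probesets had groups that did not overlap. The median log2 difference over the 10 members was -0.08, against 0.001 over all probesets tested. For 7 of the 9 the 95% interval of the fold change lay inside 0.8-fold to 1.25-fold. The exceptions were SLC39A8 and SLC39A14, whose samples were more spread. The share of all probesets with such an interval was not counted, so nothing about the family is read from this count. The median SE of the log2 difference over all probesets tested was 0.09.

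Among the remaining transporters of the plasma membrane, SLC39A6 and SLC39A10 had slightly higher means in MIX. In mammalian cells the 2 proteins form a joint complex, and SLC39A6, also called LIV-1, was first found as an estrogen-responsive gene in human breast cancer cells. SLC39A6 ranged from 9.05 to 9.33 log2 in MIX and from 8.90 to 9.24 in ISe, with a fold change of 1.07 (95% interval 0.95 to 1.21). SLC39A10 ranged from 8.60 to 8.90 in MIX and from 8.52 to 8.79 in ISe, also 1.07-fold (0.95 to 1.21). MIX 1, MIX 8 and MIX 10 lay above every ISe sample in SLC39A10, and ISe 2 and ISe 3 lay below every MIX sample.

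SLC39A3, a close relative of SLC39A1, ranged from 6.44 to 6.66 in MIX and from 6.54 to 6.78 in ISe. Its fold change was 0.96 (95% interval 0.86 to 1.06). SLC39A4, the transporter of intestinal zinc absorption whose loss causes acrodermatitis enteropathica in humans, was the only member whose mean lay below the array medians. It ranged from 5.00 to 5.30 in MIX and from 5.05 to 5.44 in ISe, 0.94-fold (0.81 to 1.08), so that its interval may understate how far the transcript could change.

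The members that act at organelles did not differ past the threshold between the groups. Among them was SLC39A7, which had the smallest unadjusted p of the 9 members tested, 0.167 (limma). SLC39A7, which releases zinc from the endoplasmic reticulum and Golgi, was 9.06 in MIX 1, 9.06 in MIX 8, 8.86 in MIX 9, 8.85 in MIX 10 and 8.83 in MIX 11. In ISe it ranged from 8.90 to 9.16, so that MIX 9, MIX 10 and MIX 11 lay below every ISe sample while MIX 1 and MIX 8 lay among them. Its log2 difference was -0.11 ± 0.08 (SE; adjusted p = 0.941, limma), and -0.20 without MIX 1 and MIX 8. SLC39A11, a transporter of intracellular membranes, ranged from 6.77 to 6.97 in MIX and from 6.88 to 7.04 in ISe, 0.94-fold (95% interval 0.86 to 1.03). SLC39A9, a Golgi and plasma membrane protein also described as a membrane androgen receptor in fish and human cells, ranged from 8.03 to 8.21 in MIX and from 7.95 to 8.15 in ISe, 1.04-fold (0.95 to 1.14).

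**Figure D2:**
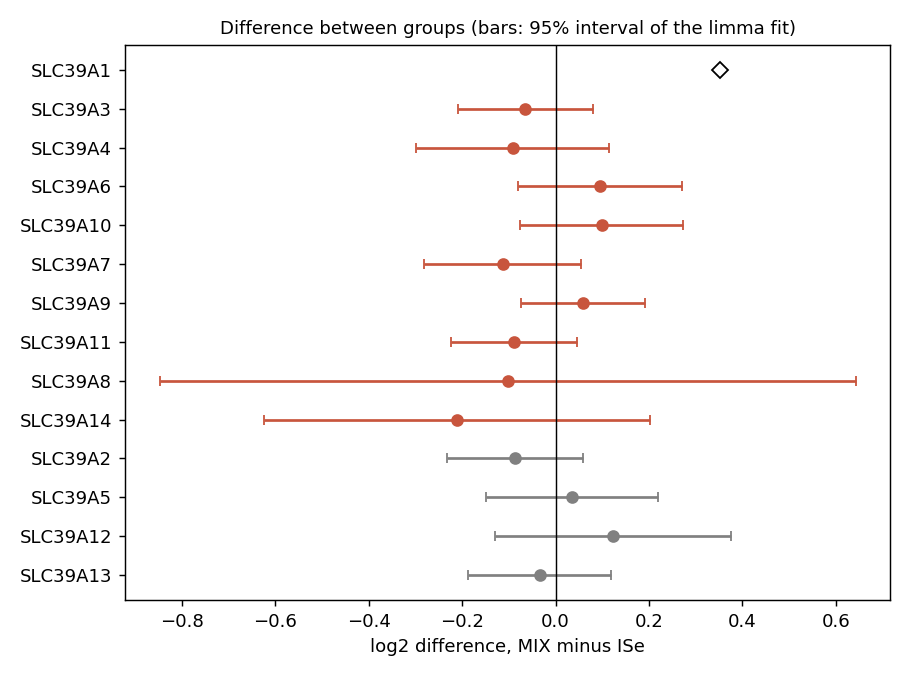
Log2 difference, MIX minus ISe, of each SLC39A gene, with the 95% interval of the limma fit (red, the members; grey, 4 further family genes). SLC39A1 is an open diamond without an interval, because it was picked for this difference; all other intervals include 0, and those of SLC39A8 and SLC39A14 are the widest.

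SLC39A8 had the largest within-group spread of the 10 members, through ISe 2. This transporter of zinc and manganese was 8.64 in ISe 2, 10.45 in ISe 3, 10.12 in ISe 5, 10.39 in ISe 6 and 10.40 in ISe 7. It was 9.82 in MIX 1, 9.59 in MIX 8, 10.59 in MIX 9, 9.96 in MIX 10 and 9.54 in MIX 11. ISe 2 lay far below all others, and apart from ISe 2 and MIX 9 the ISe samples lay above the MIX samples. From ISe 2 to MIX 9 the signal spanned 3.84-fold. The means were 9.90 ± 0.42 in MIX against 10.00 ± 0.77 in ISe (SD, n = 5 each), and the fold change of 0.93 had a 95% interval of 0.56 to 1.56. Its log2 difference of -0.10 was -0.44 without ISe 2, -0.27 without MIX 9, 0.01 without ISe 3 and 0.03 without MIX 1 and MIX 8. Without ISe 6 and without ISe 7 it was -0.005 and -0.003, and without MIX 8 and without MIX 11 -0.02 and -0.01. The direction between the groups therefore rested on single samples.

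The dimmer SLC39A8 probeset gave a like picture, from 6.72 in ISe 2 to 8.30 in MIX 9. The Pearson correlation of the 2 SLC39A8 probesets over the 10 arrays was 0.931. Both probesets measure the same RNA extracts, so this is agreement within an array and not a second set of samples.

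SLC39A14, which takes up iron not bound to transferrin as well as zinc and manganese, was the other variable member. It was 8.97 in ISe 2, 8.97 in ISe 3, 9.40 in ISe 5, 9.30 in ISe 6 and 9.28 in ISe 7. It was 9.09 in MIX 1, 9.57 in MIX 8, 8.43 in MIX 9, 8.70 in MIX 10 and 9.06 in MIX 11. The MIX group held both the highest sample, MIX 8, and the lowest, MIX 9. The fold change of 0.86 had a 95% interval of 0.65 to 1.15. Its log2 difference of -0.21 was -0.08 without MIX 9, -0.36 without MIX 8 and -0.45 without MIX 1 and MIX 8.

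The within-group SD, averaged as a variance over MIX and ISe, was 0.62 log2 for SLC39A8 and 0.34 for SLC39A14. A larger SD was found in 0.721% of all probesets tested for SLC39A8 and in 7.10% for SLC39A14. Without ISe 2 the SD of SLC39A8 was 0.32 and that of SLC39A14 0.33, and the shares with a larger SD were 8.37% and 7.01%. In MIX alone the SD was 0.42 for SLC39A8 and 0.43 for SLC39A14. The median over all probesets was 0.15. SLC39A4 was near that median, at 0.15, and the remaining 7 members lay below it, from 0.08 (SLC39A9) to 0.12 (SLC39A6 and SLC39A10).

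**Figure D3:**
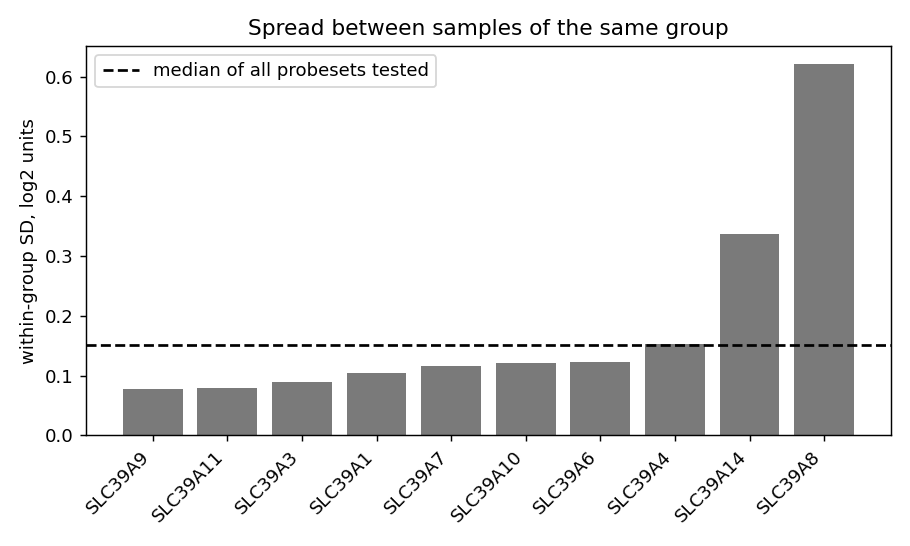
Within-group SD of each SLC39A gene over 5 MIX and 5 ISe samples, in log2 units, with the median over all 19145 probesets tested as a dashed line. SLC39A8 at 0.62 (0.32 without ISe 2) and SLC39A14 at 0.34 lie above the line, and the other members lie near or below it.

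The 4 further family genes measured, SLC39A2, SLC39A5, SLC39A12 and SLC39A13, also did not differ past the threshold, with 0 called, 0 at an unadjusted p under 0.05 and a smallest adjusted p of 0.941 (limma). SLC39A2 was at -0.09 ± 0.07, SLC39A5 at 0.04 ± 0.08, SLC39A12 at 0.12 ± 0.11 and SLC39A13, a transporter of vesicles and the Golgi that acts in connective tissue, at -0.03 ± 0.07 (log2 difference ± SE). SLC39A2, SLC39A5 and SLC39A12 lay below the array medians.

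The genes that act against or beside the ZIP transporters did not differ past the threshold either. Of 18 genes of zinc export, storage and sensing, 16 were measured, 7 with a higher and 9 with a lower mean in MIX. The median log2 difference was -0.004, against 0.001 over all probesets, with 0 called by limma and 1 at an unadjusted p under 0.05, lower in MIX, as were 2.12% of all probesets. That gene was TMEM163, a zinc transporter of vesicles and the plasma membrane, at -0.27 ± 0.08 (log2 difference ± SE, adjusted p = 0.941, limma). TMEM163 averaged 5.45 in MIX and 5.71 in ISe, and was 1 of 7 of these 16 genes with a mean below the array medians. SLC30A1, the zinc exporter of the plasma membrane, was at 9.18 ± 0.11 in MIX against 9.22 ± 0.05 in ISe (SD, n = 5 each). MTF1, the zinc sensor, was at 7.62 ± 0.04 and 7.60 ± 0.10, and SLC30A9 at 9.75 ± 0.07 and 9.69 ± 0.02.

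The metallothionein genes MT1A and MT2A varied widely between samples. MT2A was 7.39 in ISe 2, 9.68 in ISe 3, 9.11 in ISe 5, 9.42 in ISe 6 and 9.33 in ISe 7. It was 7.90 in MIX 1, 8.38 in MIX 8, 9.46 in MIX 9, 7.35 in MIX 10 and 7.95 in MIX 11. The widest gap between neighbouring values ran from 8.38 to 9.11, and each group had samples on both sides of it. The log2 difference, MIX minus ISe, was -0.78 ± 0.46 for MT2A and -0.86 ± 0.57 for MT1A (SE; adjusted p = 0.941 for both, limma). MT1A and MT2A are close relatives, and how far their probesets tell the 2 transcripts apart was not tested.

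The 5 samples with the highest MT2A signal, ISe 3, ISe 5, ISe 6, ISe 7 and MIX 9, were also the 5 with the highest SLC39A8 signal. In these samples SLC39A8 was at 10.12 or above, and in the others at 9.96 or below. The same 5 samples were highest in MT1A, at 11.06 or above against 9.89 or below, and in the dimmer SLC39A8 probeset, at 7.64 or above against 7.43 or below. Of the other 9 members, SLC39A3, SLC39A4, SLC39A6, SLC39A11 and SLC39A14 shared 3 of their 5 highest samples with MT2A, SLC39A7 and SLC39A10 shared 2, and SLC39A1 and SLC39A9 shared 1. This order was looked at after the values were seen. Since the MT2A values lie on both sides of the gap named above, 5 on each, no correlation is given and the relation was not tested.

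**Figure D4:**
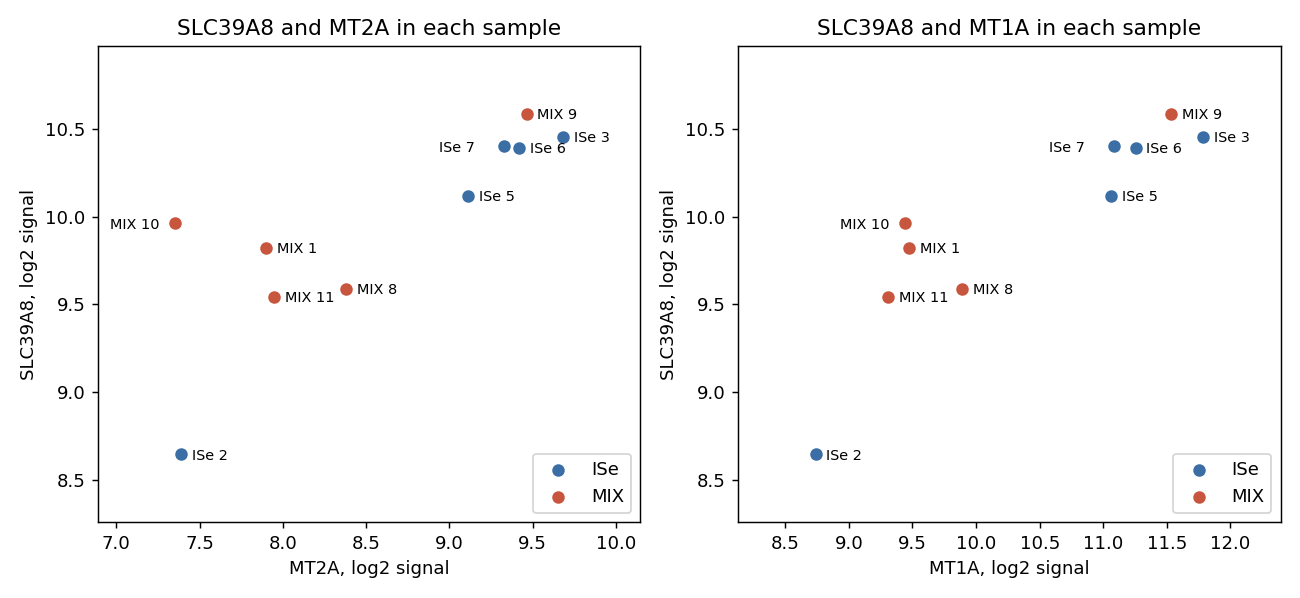
Log2 signal of SLC39A8 against that of MT2A (left) and MT1A (right) in each of the 10 samples, coloured by group and named. ISe 3, ISe 5, ISe 6, ISe 7 and MIX 9 are highest in all 3 genes, and ISe 2 is the lowest in SLC39A8 and MT1A.

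Because SLC39A8 and SLC39A14 also move iron and manganese, genes that handle these metals were set beside them. Of 22 such genes, 20 were measured, 14 with a higher and 6 with a lower mean in MIX, and had a median log2 difference of 0.05 and 0 called by limma, where 50.4% of all probesets had a higher mean in MIX. The 1 gene at an unadjusted p under 0.05, against 4.79% of all probesets, was SLC11A1, the metal transporter of phagocyte lysosomes, at 0.20 ± 0.09 (log2 difference ± SE; adjusted p = 0.941, limma). HAMP, which encodes the iron hormone hepcidin, was at -0.16 ± 0.09, ATP13A1, an ATPase of the endoplasmic reticulum, at 0.12 ± 0.08 and SLC40A1, the iron exporter ferroportin, at 0.14 ± 0.10. SLC11A1 and HAMP lay below the array medians in both groups.

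Macrophage markers, like SLC39A1, had higher means in MIX. All 19 markers measured, of 20 on the list, averaged higher in MIX than in ISe, and their median log2 difference was 0.41. Of these, 15 had an unadjusted p under 0.05, where 2.67% of all probesets did so in that direction, and 0 were called by limma, with a smallest adjusted p of 0.809. The averaged level of the 19 markers was 6.94 to 7.16 log2 in MIX and 6.47 to 6.90 in ISe. FCGR1A, the high-affinity receptor for immunoglobulin G, was at 6.33 ± 0.18 in MIX against 5.76 ± 0.13 in ISe (SD, n = 5 each), and the lysosomal glycoprotein CD68 at 8.30 ± 0.20 and 7.78 ± 0.19. The log2 difference was 0.50 ± 0.11 for the lipopolysaccharide co-receptor CD14 and 0.52 ± 0.12 for the complement chain C1QA (SE). No defining marker was at 0, since log2 signals have a background level. The lowest was SIGLEC1, at 4.71 in ISe. The markers were already known to be higher in MIX when SLC39A1 was picked, so they are not independent of it.

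In MIX the samples with the highest SLC39A1 signal, MIX 8 and MIX 10, also had the highest macrophage list means. These were 0.32 and 0.26 relative to the 10-array mean, and MIX 9, at 7.94 in SLC39A1, had the lowest, 0.10. The order did not hold for the rest of MIX. MIX 11, at 8.10 in SLC39A1, had a list mean of 0.11, and MIX 1, the lowest in SLC39A1 at 7.92, had 0.20. Inside the ISe group, too, the order of SLC39A1 was not that of the macrophage list. ISe 7 had the highest SLC39A1 signal and a list mean of -0.37, as low as that of ISe 2, also at -0.37. ISe 3 had the highest list mean of the ISe samples, 0.07, and an SLC39A1 signal of 7.63. In bulk tissue more cells of a type and more RNA per cell cannot be told apart, and the part of macrophages in the SLC39A1 difference was not tested.

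**Figure D5:**
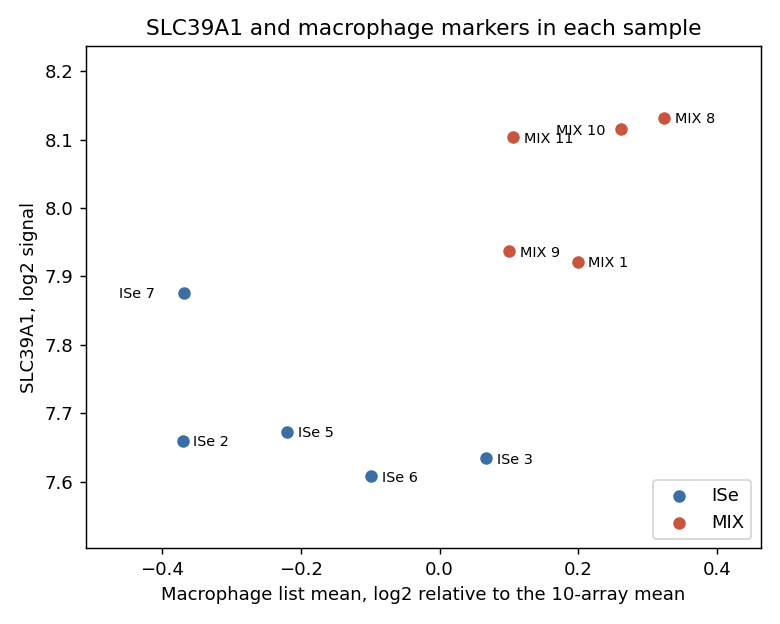
SLC39A1 log2 signal against the mean of 19 macrophage markers in each sample, the latter as log2 relative to each marker's mean over the 10 arrays. All 5 MIX samples lie above and to the right of the ISe samples, and ISe 7 combines the highest ISe signal of SLC39A1 with a low macrophage mean.

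Of the other cell types, T and NK cell markers had 7 of 8 genes with a higher mean in MIX (median 0.36 log2) and endothelial markers 8 of 8 (0.16). Fibroblast markers had 1 of 6 higher (-0.10) and smooth muscle and pericyte markers 2 of 5 (-0.08). Red cell markers had 3 of 4 higher (0.06) and adipocyte markers 1 of 4 (-0.10). Of all probesets tested, 50.4% had a higher mean in MIX. All 4 red cell, all 4 adipocyte and 6 of the 8 T and NK cell markers had means below the array medians, near background. At an unadjusted p under 0.05 (limma), 2 T and NK cell markers and 1 endothelial marker were higher in MIX, as were 2.67% of all probesets. At that level 1 red cell and 1 adipocyte marker were lower in MIX, as were 2.12% of all probesets. None of the genes of these lists was called by limma, whose smallest adjusted p over them was 0.941. The part of these cells in the values of the SLC39A genes was not tested.

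No pair of members was correlated past the threshold over all samples. Over the 10 arrays the 45 pairs had Pearson correlations from -0.665 to 0.749 with a median of 0.05, and 25 pairs were positive. After adjustment over the 45 pairs 0 passed the threshold, by Pearson or Spearman, with a smallest adjusted permutation p of 0.366. Of the 36 pairs without SLC39A1, 5 had an unadjusted permutation p under 0.05 by Pearson, 4 of them positive. SLC39A3 and SLC39A11 had r = 0.749 (permutation p = 0.0102) and rho = 0.726 (permutation p = 0.0214), with r = 0.600 without ISe 5 and MIX 8, the samples farthest from the median of SLC39A3. SLC39A4 and SLC39A14 had r = 0.725 (permutation p = 0.0167) and rho = 0.782 (permutation p = 0.0103), with r = 0.713 without ISe 5 and ISe 7. For these 2 pairs the adjusted permutation p was 0.366 for r and 0.415 for rho. SLC39A7 and SLC39A14 had r = 0.665, and 0.693 without ISe 5 and MIX 11. The remaining pairs were weaker without the 2 farthest samples. SLC39A4 and SLC39A7 had r = 0.643, and 0.261 without ISe 5 and ISe 7. SLC39A6 and SLC39A14 had r = -0.638, and -0.212 without ISe 5 and MIX 9.

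For pairs with SLC39A1 the values over all arrays hold the group difference for which the gene was picked, so they are given with no p. The lowest of these correlations was with SLC39A11, at r = -0.665. On deviations from the group means r with SLC39A11 was -0.483 (permutation p = 0.155, adjusted 0.699) and rho was -0.721 (permutation p = 0.0231, adjusted 0.346). SLC39A11 was picked by its r over all arrays, so these values are not independent of that choice. The lowest Pearson r with SLC39A1 on deviations was that of SLC39A3, at -0.628 (permutation p = 0.0522, adjusted 0.377). The permutations shuffled the deviations freely over all arrays, although each group is centred on its own mean. The permutation p-values on deviations may therefore be too small.

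Outside the family, the 5 named genes whose pattern over the 10 arrays was most like that of SLC39A1, among 17049 compared, were DENND2A (r = 0.928), GDF3 (0.902), ST3GAL2 (0.892), IGFN1 (0.878) and FAU (0.858). DENND2A encodes a regulator of a Rab GTPase, GDF3 a ligand of the TGF-beta family, ST3GAL2 a sialyltransferase and FAU a ribosomal protein fused to a ubiquitin-like domain. GDF3 averaged 4.05 in MIX and 3.74 in ISe and IGFN1 5.64 and 5.43, below the array medians. These correlations are a description with no p, since they are the highest of many, and the points share the group difference in SLC39A1. On deviations from the group means r was 0.698 for DENND2A, 0.600 for GDF3, 0.739 for ST3GAL2, 0.697 for IGFN1 and 0.629 for FAU. The ranking that picked these genes holds the same deviations, so these values are not independent of the choice.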

How the data were processed

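Corpora lutea of 5 MIX and 5 ISe samples were measured on single-colour whole-transcript arrays, grouped and numbered by their titles. Per the labels' protocols, total RNA was extracted with TRIzol, fragmented by enzyme and labelled with biotin. The values the authors deposited run from 0.54 to 14.17 with near-equal array medians and were read as log2 signals. The submitters' processing notes list GCOS 1.2 and Partek without saying what each did. How background was corrected and probes were summarised and normalised is not stated, so their effect on small differences is unknown.

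Of 26773 probesets, 18457 carry 1 gene symbol, 688 several and 7628 none in the platform annotation. The 19145 with a symbol were tested, and genes were named only from probesets with 1 symbol. All 10 members kept their symbol in the current cattle gene table. MIX and ISe were compared in a limma 3.58.1 fit (lmFit, eBayes; R 4.3.3), with two-sided p-values adjusted by Benjamini-Hochberg over all probesets tested and called under 0.05. The fit was tested on simulated data. Correlation p-values are two-sided, from 100000 permutations. Alternatives are given in the closing section. Python 3.11.15 and matplotlib 3.10.9 drew the figures.

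The members, lists and alternatives were chosen with earlier results of these data known. Named genes are the members, the 4 genes with the smallest unadjusted p of each list of zinc, iron or macrophage genes, SLC30A1, MTF1, MT1A and MT2A, and the 5 genes most correlated with SLC39A1. CYP11A1 and SIGLEC1 fall outside this rule, being picked with their values in view. Of the other cell type lists only counts and medians are given.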

Additional observations from a re-analysis of the deposited data

Results flagged for a closer look

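In 28 named genes and 2 groups each (56 groups of 5 samples), 9 values lay far from the other 4 of their group. They came from ISe 2 and ISe 7 (3 each) and from MIX 1, MIX 9 and MIX 11 (1 each). Chance gives about 1 in 20 for independent groups without ties. Here the same samples recur in several genes and some values are tied, so no excess is read from this count. The item tested was the gap of the highest or lowest sample to its nearest neighbour, against the range of the group. ISe 2 was far below the other ISe samples in SLC39A8 (8.64, next 10.12), MT2A (7.39, next 9.11) and MT1A (8.74, next 11.06). ISe 7 was far above the other ISe samples in SLC39A1 (7.88, next 7.67) and SLC39A13 (6.73, next 6.61), and below them in SLC30A9 (9.65, next 9.70), where the whole group spanned only 0.05 log2. MIX 9 was above the other MIX samples in MT1A (11.53, next 9.89), MIX 11 in MTF1 (7.68, next 7.61), and MIX 1 was below them in HAMP (5.45, next 5.81).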

How the results depend on the processing

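No paired analysis was possible because MIX and ISe share no replicate number. The count of 0 probesets called was 0 under every other setting tried except 1 without MIX 8, and 0 to 1 when each array was left out in turn. The settings were quantile normalisation, centring, leaving out the dimmest 25% or 50%, all probesets, 1 probeset per gene, trended, robust or no moderation, array weights, and leaving out MIX 1 and MIX 8 together. None of the zinc, iron and manganese or macrophage genes was called under any of them. The direction of SLC39A8 reversed to a log2 difference of 0.027 without MIX 1 and MIX 8 and of 0.0104 without ISe 3, and ran from -0.442 to 0.0104 with 1 array left out, while the other members kept theirs in every setting that gave a value. SLC39A1 ran from 0.329 to 0.398 with 1 array left out. SLC39A4 gave no value without the dimmest 50%. The count of pairs of members called was 0 in every other setting and 1 without ISe 3, so 0 to 1 with 1 array left out. That pair holds SLC39A1 and with it the group difference for which SLC39A1 was picked. The within-group SD of SLC39A8 ran from 0.315 without ISe 2 to 0.693 without ISe 5. With 5 arrays per group, small differences in variable genes such as SLC39A8 are not detectable.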
